A study of Mus musculus with 4 samples.

Results

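Mpo, Elane, Prtn3 and Ctsg encode the peroxidase and the serine proteases of the primary (azurophil) granule. The 4 genes were chosen by name out of 17507 gene names and were read in 343 of 1536 wells, those with at least 1000 transcripts from genes. Each well received 1 sorted bone marrow cell of C57BL/6 mice, freed from the marrow with collagenase IV and dispase and negative for CD51, the integrin alpha V chain. The series asks about the blood-cell origin of marrow cells without CD45, and its labels call the cells TNCs without spelling this out. A CD44+ CD51- sort was compared with a CD44- CD51- sort, CD44 being the hyaluronan receptor. Replicate 1 of each sort was a whole plate from 1 flow cell. Replicates 2 and 3 were blocks of plates that held both sorts, rows A to H for CD44+ and rows I to P for CD44-, from the other flow cell. The labels give no treatment, genotype or age, and name no animal for any plate. The p-values here therefore cover the spread between libraries alone, and that spread may be technical.

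Primary granules are the first granules to form in the neutrophil lineage. Their genes are transcribed at the promyelocyte stage and in the progenitors that feed granulocytes and monocytes, and are shut off before the genes of the later granules, such as Ltf (lactoferrin) and Camp (cathelicidin), are switched on. Myeloperoxidase makes hypochlorous acid from hydrogen peroxide and chloride, while neutrophil elastase (Elane), proteinase 3 (Prtn3) and cathepsin G (Ctsg) are related serine proteases stored in active form.

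In GRCm38 (mm10, GENCODE vM21) Mpo spans 87793581 to 87804413 of chromosome 11, forward strand. Prtn3 and Elane are neighbours on the forward strand of chromosome 10, from 79874476 to 79883174 and from 79886247 to 79888215, with 3072 bases and 0 annotated genes between them. Ctsg spans 56099881 to 56102574 of chromosome 14, reverse strand. The annotation places the antisense gene Gm11505 over Mpo and the reverse-strand gene Plppr3 over Prtn3. Use of strand in the counting is not given in the sources used here, so reads of those partners cannot be told apart from reads of Mpo and Prtn3.

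Stretches before the start sites are shown because the 4 genes were found together in the same wells. All 4 matched an entry of the RefSeq promoter table (GRCm38.p6). Within the 250 bases before each RefSeq start, AGGAAGT, a motif of the ETS family to which the myeloid factor PU.1 belongs, occurred in all 4, in the sense direction. It occurred on either strand in 7.69% of 32851 RefSeq promoters of this length. Each line gives the part of that window which holds the motif, in capitals, and lies outside exons of GENCODE vM21, read 5′ to 3′ on the gene's own strand. Mpo is chr11:87793534-87793580 forward, Elane chr10:79886062-79886246 forward, Prtn3 chr10:79879417-79879613 forward and Ctsg chr14:56102575-56102824 reverse.
Mpo: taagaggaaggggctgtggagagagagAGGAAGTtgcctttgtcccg
Elane: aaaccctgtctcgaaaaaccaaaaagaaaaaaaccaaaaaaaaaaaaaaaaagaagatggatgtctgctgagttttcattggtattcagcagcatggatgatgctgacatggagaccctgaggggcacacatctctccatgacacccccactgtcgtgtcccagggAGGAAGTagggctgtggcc
Prtn3: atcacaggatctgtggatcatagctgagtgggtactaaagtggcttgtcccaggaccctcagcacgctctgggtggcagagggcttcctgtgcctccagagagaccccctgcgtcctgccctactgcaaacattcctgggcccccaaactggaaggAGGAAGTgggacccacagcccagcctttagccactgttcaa
Ctsg: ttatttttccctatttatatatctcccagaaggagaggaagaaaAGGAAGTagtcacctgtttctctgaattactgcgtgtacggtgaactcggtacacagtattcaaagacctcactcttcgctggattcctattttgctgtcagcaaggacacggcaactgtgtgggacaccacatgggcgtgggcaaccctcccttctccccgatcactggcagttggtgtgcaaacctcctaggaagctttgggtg

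The motif began 84 bases before the RefSeq start of Elane, 94 before that of Prtn3, 223 before that of Mpo and 206 before that of Ctsg. These distances depend on the annotation: from the GENCODE gene starts given above the motif began 19 bases before Elane, 20 before Mpo and 206 before Ctsg, and it lay 5097 bases inside the span of Prtn3. The RUNX motif TGTGGT was found in the window of Ctsg (14.0% of promoters hold it on either strand), and the short MYB motif AACNG in all 4 windows (74.2% of promoters). The 3 motifs did not overlap each other in these windows by their positions. They were chosen after the sequences had been read, and a match describes letters, not binding.

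The 6 libraries differed in depth. The CD44+ libraries summed 149707, 1118722 and 1707318 transcripts over 56, 95 and 87 wells, with medians of 1994, 5162 and 11225 per well, and the CD44- libraries 97041, 101367 and 158763 over 44, 24 and 37 wells, with medians of 1848, 1795 and 2544. Low-quality wells, those with at least 2% of Kcnq1ot1 or 50% of mitochondrial transcripts, made up 12.5% to 57.1% of a library, and 0 of the 16 wells rich in the 4 genes were among them.

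Transcripts of the 4 genes sat in a small number of wells. They summed to 6584 in the kept wells, and 85.9% of these lay in 16 wells (4.66% of wells) where they reached at least 5 transcripts and at least 0.5% of the well, here called rich. In CD44+ replicate 3 a pair of wells with 1343 and 1312 transcripts held 75.0% of that library's total. In CD44+ replicate 1 a single well held 88 of 89 transcripts, and in CD44- replicate 1 a single well held 46 of 49. The most loaded well held 26.0% of the total in CD44+ replicate 2, 39.0% in CD44- replicate 2 and 18.5% in CD44- replicate 3. In CD44- replicate 3 the 54 transcripts were spread over 26 of 37 wells, with at most 10 in a well, and in CD44- replicate 2 the 267 transcripts over 23 of 24 wells. The level of both replicate 1 libraries thus rests on a single well each, and that of CD44+ replicate 3 mostly on a pair.

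Summed per library, Mpo stood at 147, 900 and 886 CPM (counts scaled to a fixed library total) in CD44+ replicates 1, 2 and 3 and at 175, 592 and 113 CPM in the CD44- replicates. The sorts overlapped. Replicate 1 was the lowest of the CD44+ libraries and replicate 3 the lowest of the CD44- libraries. Elane stood at 255, 513 and 470 CPM in the CD44+ libraries and at 144, 1365 and 157 CPM in the CD44- libraries, so the highest value of the 6 came from CD44- replicate 2. Prtn3 stood at 147, 565 and 434 CPM against 113, 415 and 44.1 CPM. Ctsg, the lowest of the 4 in each of the 6 libraries, stood at 46.8, 333 and 282 CPM against 72.2, 266 and 25.2 CPM. Each transcript is counted once through its molecular identifier, so these values are not divided by gene length.

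**Figure D1:**
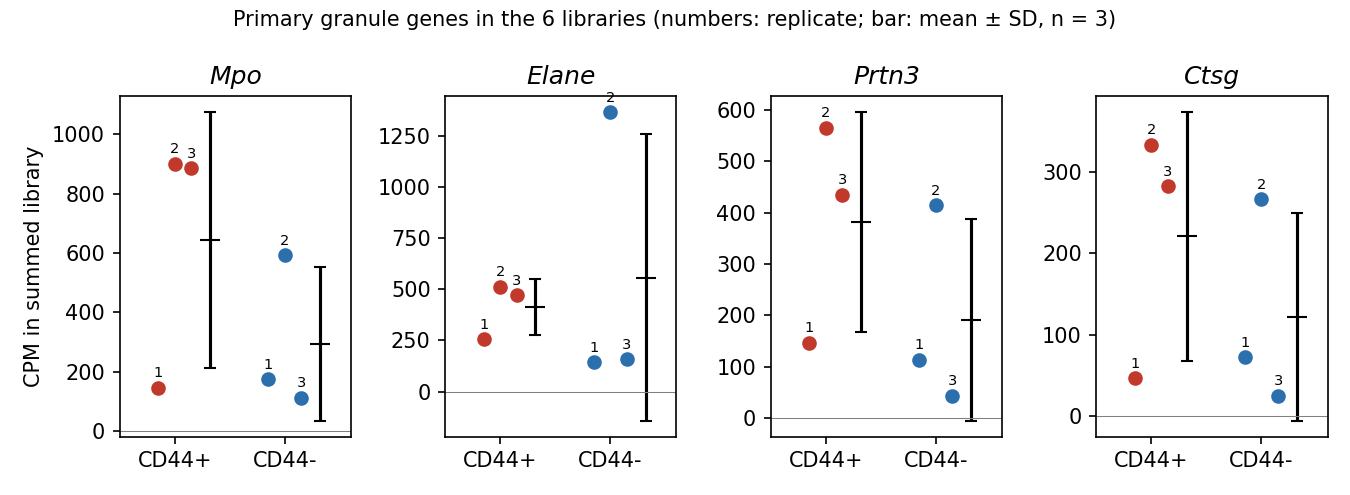
Level of each gene in the 6 summed libraries, in CPM on the y axis, with the sort on the x axis. Points are libraries with their replicate number, and bars give the mean ± SD of 3 libraries. The sorts overlap for all 4 genes, and for Elane the CD44- replicate 2 library, at 1365 CPM, is the highest of the 6.

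No difference between the sorts passed the test for any of the 4. Mean levels in the CD44+ and CD44- sorts were 644 ± 431 and 294 ± 261 CPM for Mpo, 413 ± 138 and 556 ± 701 CPM for Elane, 382 ± 214 and 191 ± 197 CPM for Prtn3, and 221 ± 153 and 121 ± 128 CPM for Ctsg (SD, n = 3 libraries each). The log2 differences, CD44+ minus CD44-, in edgeR's quasi-likelihood test with Benjamini-Hochberg adjustment were 0.98 for Mpo (SE 0.72, adjusted p = 0.484), -0.50 for Elane (SE 0.79, adjusted p = 0.762), 0.89 for Prtn3 (SE 0.74, adjusted p = 0.528) and 0.77 for Ctsg (SE 0.82, adjusted p = 0.634). Of 2463 genes tested, 25 were called (1.02%), and 0 of the 4. With the pair of same-numbered libraries as a block, 156 were called (6.33%) and again 0 of the 4, and the Elane difference became 0.17 (adjusted p = 0.863). Without CD44- replicate 2 the differences were 1.96 for Mpo, 1.33 for Elane, 2.14 for Prtn3 and 2.10 for Ctsg, with adjusted p from 0.192 to 0.306. CPM of the sorts did not overlap for 641 of the 2463 genes (26%), and for 0 of the 4.

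The 3 pairs differed in direction for 3 of the genes. On pair 3 each of the 4 genes was higher in the CD44+ library, with log2 ratios of 2.86 for Mpo, 1.52 for Elane, 3.04 for Prtn3 and 3.05 for Ctsg after adding 10 CPM. On pair 2 Elane had a ratio of -1.39, while the other 3 lay between 0.31 and 0.60. On pair 1 Mpo (-0.24) and Ctsg (-0.53) were below 0, and Elane (0.78) and Prtn3 (0.35) above. The sort by flow cell term called 0 of 2463 genes in edgeR (0%; 87 at an unadjusted p under 0.05), with adjusted p between 0.948 and 0.972 for the 4.

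Of the 16 rich wells, 13 were CD44+ and 3 were CD44-. Per library they numbered 1 of 56 wells (1.79%, 95% Wilson interval 0.316 to 9.45), 6 of 95 (6.32%, 2.93 to 13.1) and 6 of 87 (6.90%, 3.2 to 14.2) in the CD44+ sort. In the CD44- sort they numbered 1 of 44 (2.27%, 0.402 to 11.8), 2 of 24 (8.33%, 2.32 to 25.8) and 0 of 37, which allows a share of up to 8.11%. These intervals and limits cover counting error only. The mean shares were 5.00% ± 2.80 and 3.54% ± 4.31 (SD, n = 3; two-sided exact permutation p = 0.8, where 3 against 3 cannot go below 0.1). At a threshold of 1% of the well, 12 wells remained, 11 CD44+ and 1 CD44-, and at 0.2% there were 38, 19 of each sort, 17 of them among the 24 wells of CD44- replicate 2. The wells just inside the 0.5% threshold held 0.507%, 0.538% and 0.597%, and those just outside 0.493%, 0.468% and 0.451%.

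The rich wells fell into groups of different depth. The first were 7 CD44+ wells of the shared plates, 4 on replicate 2 and 3 on replicate 3, with 394 to 1343 transcripts of the 4 genes each. They held 79.6% of all such transcripts, and had 27115 to 65822 transcripts in total, so the 4 genes took 1.01% to 3.79% of each well. Another 5 wells, rich in these genes and not in Ltf and Camp, were shallower (1098 to 6931 transcripts) but held a like share, 0.810% to 3.23%. The 3 wells just inside the threshold, 2 of them from CD44- replicate 2, held 7 to 12 transcripts each.

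Mpo led in the deep wells. The well with the most held 635 transcripts of Mpo, 287 of Elane, 243 of Prtn3 and 179 of Ctsg, and the next 551, 248, 310 and 202 in the same order. The other 5 held 308, 118, 157 and 89, then 276, 60, 159 and 115, then 188, 84, 136 and 71, then 222, 41, 86 and 82, and last 130, 105, 114 and 45. Mpo thus made up 33.0% to 51.5% of the 4 genes' transcripts in these wells, Prtn3 18.1% to 28.8%, Ctsg 11.5% to 19.0% and Elane 9.56% to 26.7%. Relative to its own lowest share Elane varied most there, while in percentage points Mpo had the widest range. Elane led in 3 of the 5 shallower wells, with 38 of 88, 17 of 45 and 17 of 35 transcripts. A well with 56 transcripts held 26 each of Mpo and Prtn3 but 2 each of Elane and Ctsg.

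**Figure D2:**
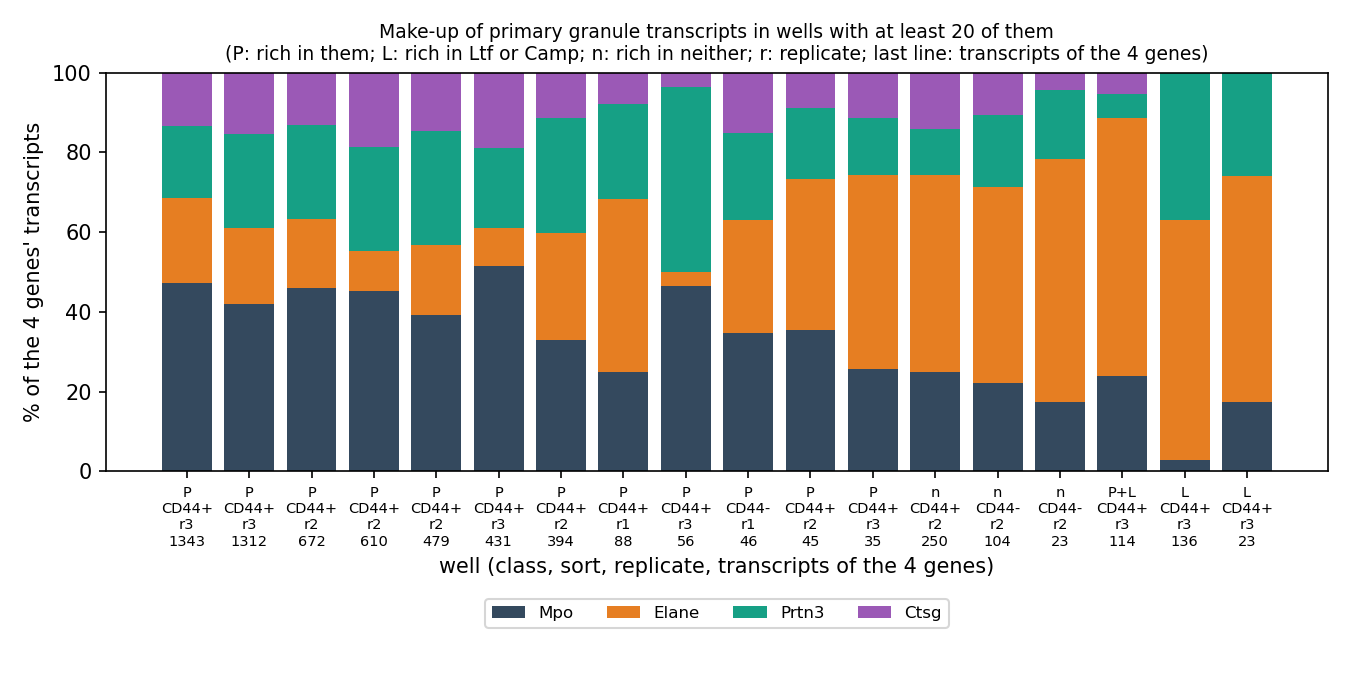
Percentage of the 4 genes' transcripts contributed by each gene (y axis) in every kept well with at least 20 of them (x axis, with sort, replicate and their number). Mpo takes 33.0% to 51.5% in the 7 deep wells on the left. Elane leads in the wells to the right that also held Ltf and Camp transcripts. It also leads in some shallower wells that held no transcript of Ltf or Camp.

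Wells rich in Ltf and Camp together numbered 21 under the same rule, 13 CD44+ and 8 CD44-. They were 21 of the 343 kept wells, where 16 (4.66%) were rich in the primary granule genes. In 1 well both sets were rich, which is 6.25% of the 16 and 4.76% of the 21. Both values were near the shares over all kept wells, so no separation of the sets is read from this overlap. The 7 deep wells held 0 to 2 transcripts of Ltf and Camp. Of the 20 wells rich in Ltf and Camp alone, 10 had no transcript of the primary granule genes, 5 had 1 and 5 had more. Over all kept wells, 183 of 343 had none. At 0.2% of the well the overlap was 6 wells, 15.8% of 38 and 23.1% of 26. Both values were above the shares over all kept wells, 26 of 343 and 38 of 343. At 1% the overlap was 1 well, 8.33% of 12 and 5.56% of 18.

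**Figure D3:**
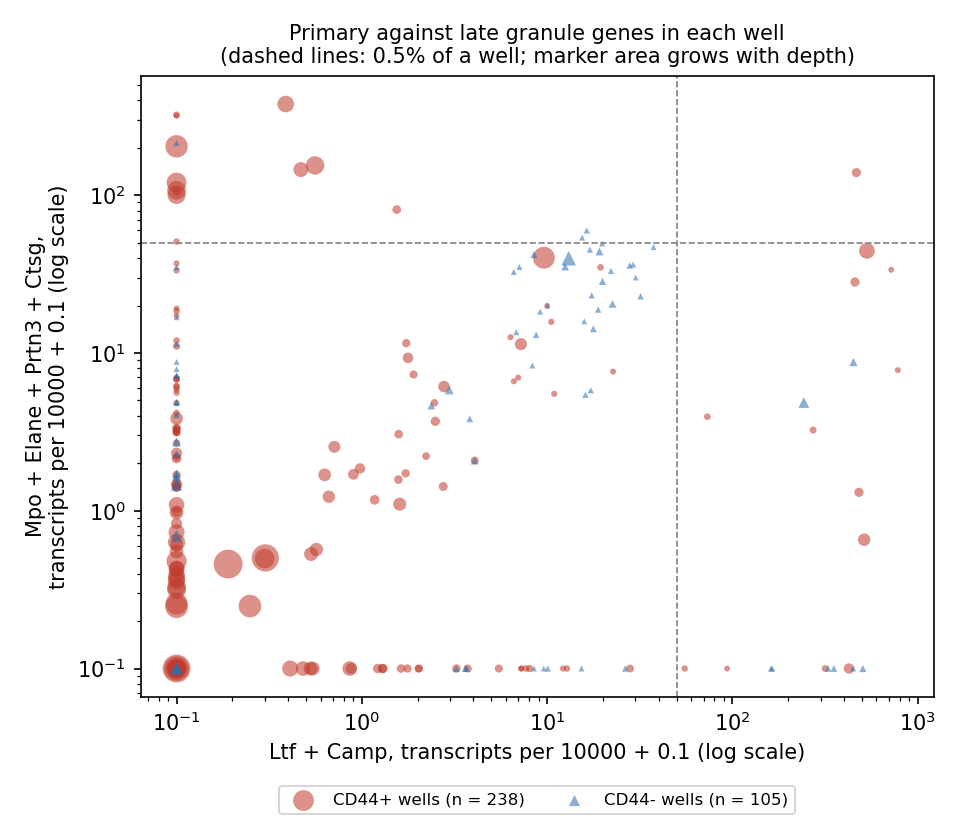
Summed primary granule genes (y axis) against summed Ltf and Camp (x axis) in each kept well, both as transcripts per 10000 plus 0.1 on log axes, with 238 CD44+ and 105 CD44- wells. The upper right corner, rich in both, holds 1 well, and a diagonal band rich in CD44- wells lies mostly below both dashed lines.

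The wells where the sets met differed in make-up from the 7 deep wells rich in primary granule genes. The well rich in both, from CD44+ replicate 3, held 27 transcripts of Mpo, 74 of Elane, 7 of Prtn3 and 6 of Ctsg beside 2 of Ltf and 380 of Camp. A deep well of the same library, rich in Camp (1590 transcripts), held 82 of Elane, 50 of Prtn3, 4 of Mpo and 0 of Ctsg. Elane made up 64.7% of the primary granule transcripts in the first and 60.1% in the second. Pooled over the 15 wells rich in primary granule genes alone it made up 18.8%, against 43.4% for Mpo, 23.1% for Prtn3 and 14.6% for Ctsg. The 7 deep wells held 5241 of the 5542 transcripts in that pool. In the 5 shallower wells of this kind Elane had a median of 37.8% (3.56% to 48.6%). Pooled over the 307 wells rich in neither set it made up 49.3%. A high share of Elane was thus not particular to wells rich in Ltf and Camp. Pooled over the 20 wells rich in Ltf and Camp alone Elane made up 59.1% of 179 transcripts, with Mpo at 8.93%, Ctsg at 0 and Prtn3 making up the rest. The well with 82 Elane transcripts dominates that pool. Ctsg was in 0 of the 20 wells, which allows a share of up to 15% of wells with a transcript. Over all kept wells it was in 49 of 343, a share under that limit, so no absence particular to the 20 is read from this.

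The ratio of the 4 genes to Ltf and Camp was compared between the sorts as log2 of summed CPM, with 10 CPM added to each. It was -0.45, 0.66 and 0.22 in the CD44+ libraries and -3.29, -1.32 and 0.53 in the CD44- libraries. The means were 0.14 ± 0.56 and -1.36 ± 1.91 (SD, n = 3; exact permutation p = 0.3), and the sorts overlapped through CD44- replicate 3. For the late genes themselves the log2 difference was -2.54 for Ltf (adjusted p = 0.293) and -1.40 for Camp (adjusted p = 0.408) in edgeR. Of 16 late granule genes listed, 12 were tested and 0 were called, with 0 of 12 above 0 and a median of -1.83, where the median of all 2463 genes was -0.04. In the fit blocked by pair 2 of the 12, Anxa1 and Hp, were called lower in the CD44+ sort, beside the 6.33% called in either direction over all genes. Of the 19 genes in the list of neutrophil progenitor and primary granule genes, which holds the 4, 9 were tested, 3 lay above 0 and 0 were called. Those 3 were Mpo, Prtn3 and Ctsg, so no other tested gene of the list lay above 0.

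Among the 343 wells, 183 had none of the 4 genes, 81 had 1, 38 had 2, 19 had 3 and 22 had all 4, and 15 of those 22 were rich wells. Pearson's r of log2(transcripts per 10000 + 1) over the 343 wells was 0.69 for Mpo with Elane, 0.67 for Mpo with Prtn3, 0.68 for Mpo with Ctsg, 0.60 for Elane with Prtn3, 0.65 for Elane with Ctsg and 0.71 for Prtn3 with Ctsg. With Ltf it was 0.04 for Ctsg, 0.05 for Prtn3, 0.16 for Mpo and 0.21 for Elane, and with Camp 0.06, 0.12, 0.21 and 0.28. Elane thus had the highest r with both late genes. In the 327 wells that were not rich, r among the 4 was between 0.27 and 0.50, and r of the 4 with Ltf or Camp between 0.13 and 0.34, so the ranges within and between the sets overlapped there. Wells of a library share their plate, their depth and any background, so these values describe the wells and carry no p.

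The genes most like the sum of the 4 over the 343 wells, among 10592 with a transcript in at least 10 wells, were Gstm1 (r = 0.53), F630028O10Rik (0.52), Ms4a3 (0.52), Pkm (0.50), Pgam1 (0.47), Emb (0.47), Ly6c2 (0.46), Sh3bgrl3 (0.45), Eif5a (0.45) and Fcgr3 (0.44). They were picked by r in these same wells, so higher values in the rich wells follow from the choice. Depth also eased detection, since 7 of the rich wells held 27115 to 65822 transcripts. Ms4a3, a membrane protein gene used to mark granulocyte and monocyte progenitors, was found in 12 of the 16 rich wells and in 3.36% of the others. Fcgr3, an Fc receptor gene, was in 14 of 16 and 7.34% of the others. Ly6c2, of the Ly6C monocyte antigen, averaged 13.5 transcripts per 10000 in rich wells against 1.21 in the others. Pkm and Pgam1 encode glycolytic enzymes and Gstm1 a glutathione transferase, and both glycolysis genes were also in over 34% of the other wells. Camp ranked 118 (r = 0.27) and Ltf 291 (r = 0.21).

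Markers that the rule had not used described the 15 wells rich in primary granule genes alone. Among the early progenitor list, Cd34, the antigen of blood stem and progenitor cells, was found in 6 of the 15 wells with 78 transcripts, in 0 of the 20 wells rich in Ltf and Camp alone and in 0 of the 307 wells rich in neither, which allows up to 15% and 0.977% of wells with a transcript. All 6 were among the 7 deep wells, with 0 to 28 transcripts each in the 7. Kit, the stem cell factor receptor, was in 6 of 15, 3 of 20 and 63 of 307. The 15 wells had a median of 6931 transcripts, against 2715 and 3337, and the 7 deep wells a median of 43535, so detection there was easier.

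The other 15 genes of the neutrophil progenitor and primary granule list averaged 77.4 transcripts per 10000 in sum in the 15 wells, 42.2 in the 20 and 11 in the 307. Of them, 14 had a higher mean in the 15 wells than in the 307 (all but Lyz2) and 9 a higher mean than in the 20. The 6 lower than in the 20 were Fcnb (0.63 against 6.08), Lyz2 (0.70 against 10.2), Serpinb1a (1.6 against 4.66), Cd63 (1.21 against 3.10), Igsf6 (1.19 against 1.42) and Hk3 (2.13 against 2.16). Srgn, Plac8, Calr and Ms4a3 had the highest means in the 15 wells. Srgn, whose product is the proteoglycan that packs granule proteases, averaged 25.1 transcripts per 10000 in the 15 wells, 4.41 in the 20 and 4.17 in the 307. Plac8 averaged 20.3, 0.97 and 1.27, Calr, an endoplasmic reticulum chaperone, 9.90, 3.21 and 2.56, and Ms4a3 3.93, 0.93 and 0.041. Cst7 and Prss57, the latter a further serine protease of neutrophil granules, were in 10 and 6 of the 15 wells and in 4 and 2 of the 307. Those 2 genes were chosen after their values were seen.

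Most monocyte genes had a higher mean in the 15 wells. The list of 11 monocyte genes averaged 41.5 transcripts per 10000 in the 15 wells (range 0 to 81.2), 14.4 in the 20 and 8.06 in the 307, and all 11 were found in each of these 3 kinds of well. Of the 11, 8 had a higher mean in the 15 wells than in the 20 and 9 a higher mean than in the 307. Fn1 was lower than in both (0.10 against 1.89 and 0.88), Klf4 (0.82 against 1.58) and Mpeg1 (1.24 against 1.33) were lower than in the 20, and Cx3cr1 (0.39 against 0.51) than in the 307. Ly6c2 was in 13 of the 15 wells, 14 of the 20 and 33 of the 307. F13a1, of coagulation factor XIII, was in 10, 1 and 39, Irf8, a transcription factor of monocyte fate, in 11, 3 and 51, and Ms4a6c in 10, 5 and 89. In the 7 deep wells Irf8 had 0 to 51 transcripts and Ly6c2 15 to 99. The well with 551 Mpo transcripts was the one deep well with 0 of Irf8, and it had the most Ms4a3, 57 transcripts, where the other 6 had 2 to 33. Csf1r, the receptor for macrophage colony-stimulating factor, was likewise at 0 there and present in the other 6. It was chosen after its values were seen.

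**Figure D4:**
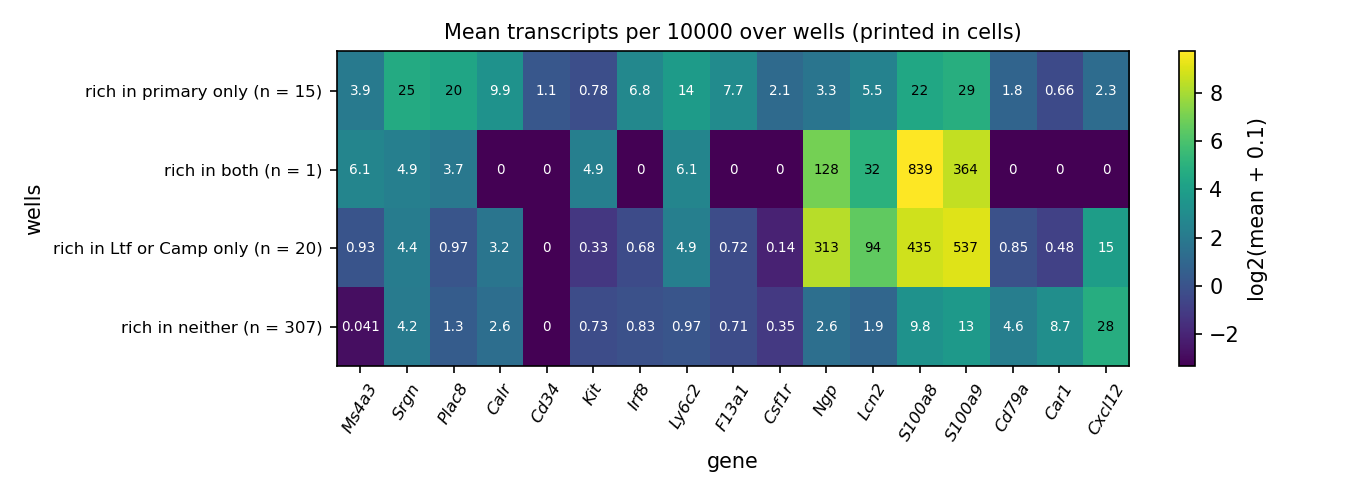
Mean transcripts per 10000 (printed, and coloured as log2 of the mean plus 0.1) of 17 marker genes (x axis) in the 4 kinds of well (y axis). Srgn, Plac8, Irf8 and Ly6c2 are highest in wells rich in primary granule genes alone, while Ngp, Lcn2, S100a8 and S100a9 are highest in the 21 wells rich in Ltf and Camp.

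Late granule genes other than Ltf and Camp, which the rule used, were lower in those wells than in the 20 and not lower than in the 307. The 12 such genes in the files averaged 73.4 transcripts per 10000 in the 15 wells (median 14.4), 1522 in the 20 (median 1435) and 38.7 in the 307 (median 6.08). All 12 had a lower mean in the 15 wells than in the 20, and 8 of the 12 a higher one than in the 307. Of its members, S100a9 and S100a8, a calcium-binding pair abundant in neutrophils, averaged 29.2 and 21.9 in the 15 wells, 537 and 435 in the 20, and 13.1 and 9.81 in the 307. In the 15 wells their medians were 0.22 and 0.87, against 0 and 0 in the 307. A single CD44+ replicate 2 well held 132 of the 158 S100a9 and 87 of the 122 S100a8 transcripts of the 15. Of the transcription regulators, Myb averaged 2.67 transcripts per 10000 in the 15 wells, 1.70 in the 20 and 2.85 in the 307, and Runx1 1.10, 0.60 and 0.75. Cebpe, a regulator of the later granule genes, was in 3 of the 15, 6 of the 20 and 4 of the 307, and Cebpa in 8, 0 and 23, both chosen after their values were seen. Of other granulocyte lists, the 2 eosinophil genes in the files were at 0 in the 15 wells, and of 5 basophil and mast cell genes only Mcpt8 was found, in 5 wells.

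Gate genes were read in the same wells. Ptprc, which encodes CD45, had a transcript in 10 of the 15 wells and in all 7 deep wells (1 to 19 each), against 15 of the 20 and 79 of the 307. Cd44 was in 9 of the 15, including the 7 deep CD44+ wells with 8 to 21 transcripts each, against 11 of the 20 and 124 of the 307. Itgav, which encodes CD51, was in 3 of the 15, 3 of the 20 and 23 of the 307. The 15 wells were deeper, with a median of 6931 transcripts against 2715 and 3337. Transcripts do not report surface protein, so the sort labels were not tested by them.

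Single transcripts of these genes were found in wells of every kind examined. Before thinning, 160 of 343 wells (46.6%) had at least 1 transcript of the 4. Wells rich in other lists, by a rule of the same form set after the data were seen, served as background. A transcript of the 4 was found in 41 of 88 wells rich in early erythroid genes (46.6%, median depth 10502), 24 of 53 rich in B progenitor genes (45.3%, 3335) and 8 of 20 rich in stromal genes (40.0%, 6258). The pooled level was 0.57 per 10000 in the early erythroid wells, 1.38 in the stromal wells and 10.4 in the B progenitor wells, where 250 of 312 transcripts came from 1 well, against 167 in the 15 rich wells. Within CD44- replicate 3 the early erythroid wells stood at 13.1.

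After each well was thinned to 1000 transcripts, which left out 0 kept wells, a transcript of the 4 was expected in 2.36%, 30.2% and 19.6% of CD44+ wells and in 4.97%, 86.0% and 43.2% of CD44- wells. Without thinning the shares were 3.57%, 64.2% and 50.6% against 9.09%, 95.8% and 70.3%. On each pair the CD44- library had the higher share, and the sorts overlapped. Thinned means were 17.4% ± 14.0 and 44.7% ± 40.5 (SD, n = 3; exact permutation p = 0.4, adjusted over 5 shares 0.667). By gene they were 8.98% and 24.1% for Mpo, 11.5% and 32.7% for Elane, 7.72% and 15.6% for Prtn3 and 5.50% and 12.8% for Ctsg, with exact permutation p between 0.4 and 0.7. These shares go the other way from the CPM of Mpo, Prtn3 and Ctsg, so no order of the sorts is read from them.

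The low level moved with the plate and the library. In kept wells rich in neither set, the 4 genes stood at 0.071, 4.07 and 0.54 transcripts per 10000 in the CD44+ libraries and at 0.37, 29.9 and 3.4 in the CD44- libraries. In wells left out for having under 1000 transcripts they stood at 1.12, 22.8 and 8.20 and at 1.15, 30.4 and 16.2. Replicate 1 of each sort was thus low and CD44- replicate 2 high in both kinds of well. In CD44- replicate 2, 19 of 20 kept wells rich in neither set had a transcript of the 4, at a median of 0.350% of the well, close to the 30.4 per 10000 of its left-out wells. The ratio of the 4 genes to Ltf and Camp was 2.41 in those kept wells and 1.87 in the left-out ones. The part that RNA from outside the sorted cell has in these levels was not tested.

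**Figure D5:**
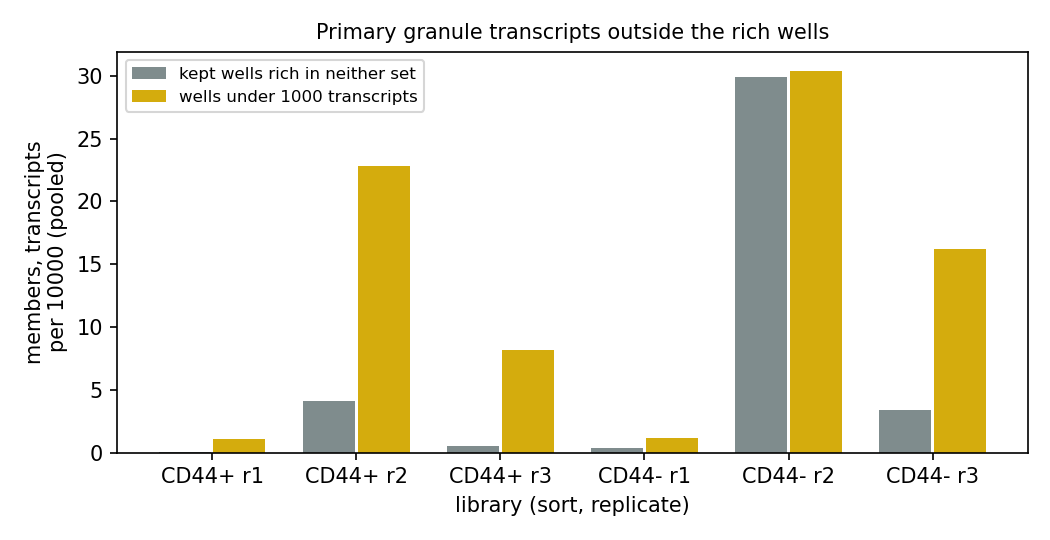
Pooled transcripts of the 4 genes per 10000 (y axis) in each library (x axis), in kept wells rich in neither set and in wells under 1000 transcripts. CD44- replicate 2 stands at 29.9 and 30.4, and both replicate 1 libraries at 1.15 or less.

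Both rich wells of CD44- replicate 2, at 0.538% and 0.597% with 7 and 11 transcripts, lay near that library's common level. A deep well of this library with 104 transcripts of the 4 (0.398% of 26244) also held 35 of Cd79a, a B cell antigen receptor gene, and 47 of S100a8. A CD44+ replicate 2 well with 250 (0.401% of 62249) held 73 of Cd79a, 116 of S100a8 and 22 of Car1, an erythroid carbonic anhydrase. Elane made up 49.1% and 49.2% of the 4 genes' transcripts in these wells, and 49.3% over all 307 wells rich in neither set. Markers of several lineages were thus found together in them, and the number of cells in a well was not tested.

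No rich well shared its well number with a rich well on another plate. With 16 of 343 kept wells rich (4.66%), little sharing could occur, so nothing is read from this. The same-numbered well on the other plate of its flow cell held at most 23 transcripts of the 4 genes, and 0 for 8 of the 16. Its number reached up to 57.1% of that of the rich well. A transcript of the 4 was found in 160 of all 343 kept wells and in 151 of the 1193 left out. Of 233 well numbers kept on some plate, 92 were kept on more than 1.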

How the data were processed

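The deposited values are expected counts: transcripts per gene and well that the authors estimated from molecular identifiers by SORT-seq, unscaled between wells. BWA 0.7.15 and mm10 were used, per the submitters' processing notes; the counter and its strand setting: not given in the sources used here. Of 796931 values above 0, 99.98% lay within 0.011 of a whole number put through a saturation correction for 4096 identifiers, an inference from the values; it added 2.32% to the sum. Plain counts had been assumed in the design, and sums were rounded. Wells were read in row order (1 to 192 as rows A to H), which the labels do not state.

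Wells with at least 1000 transcripts from genes were summed per plate and sort and compared with edgeR 4.0.16 in R 4.3.3 (quasi-likelihood, TMM, filterByExpr, no covariate, Benjamini-Hochberg threshold 0.05, two-sided), after a check on simulated data. DESeq2 1.42.0 was an alternative. CPM used library sums alone, and single values were compared by exact permutation over libraries. The SE is the log2 difference over the square root of F. Doublets were not called, since single cells were sorted.

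Same-numbered libraries share a plate (2 and 3) or a flow cell (1). Their deviations from the sort mean, over 3215 genes with a mean of at least 50 CPM, correlated at r = 0.465, 0.305 and 0.294, and other combinations between -0.352 and 0.105, so the numbers were taken as pairs; fitted calls were known by then. Named genes were the 4, Ltf, Camp, the 10 most alike over wells and up to 4 a marker list in order of level in rich wells. The genes, lists and thresholds were chosen with earlier results of these data known.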

Additional observations from a re-analysis of the deposited data

Results flagged for a closer look

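Wells left out for having under 1000 transcripts, which no comparison above used as cells, held 271 transcripts of the 4 genes: 78 of Mpo, 115 of Elane, 54 of Prtn3 and 24 of Ctsg. They lay in 151 of 1193 wells (12.7%), with at most 6 in a well and 5 or more in 8 wells. CD44- replicate 2 held 131 of them and CD44- replicate 3 58, and the wells of CD44+ replicate 1 and CD44- replicate 1 held 8 and 7.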

How the results depend on the processing

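Of 169 alternative values, 133 kept their direction and their side of the threshold, and 9 changed direction. None of the 4 genes passed the threshold under any alternative fit. Summing wells thinned to 1000 transcripts gave log2 differences of -0.21 for Mpo and 0.34 for Elane, with Ctsg not tested; 0 genes were called there by edgeR, and 35 had an unadjusted p under 0.05. The Elane difference was 0.17 with the replicate block and 1.33 without CD44- replicate 2, and leaving out 1 library gave 0.57 to 1.96 for Mpo, -0.96 to 1.33 for Elane, 0.39 to 2.14 for Prtn3 and 0.23 to 2.10 for Ctsg. Without CD44- replicate 2 the thinned share of wells was higher in the CD44+ sort by 1.10 points for Prtn3 and 1.46 for Ctsg, where leaving out 1 library gave -13.9 to 1.10 and -12.6 to 1.46. The share of rich wells, 1.46 points higher in the CD44+ sort, differed by -18.1 points at a threshold of 0.2%, by -1.08 with a minimum of 500 transcripts a well and by -0.30 to 3.86 when 1 library was left out. At 0.2%, 6 wells were rich in both sets.

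Genes called higher and lower in the CD44+ sort numbered 1 and 24. They were 43 and 113 with the replicate block, 35 and 250 with DESeq2, 142 and 335 with no low count filter, 6 and 49 without low quality wells, 0 and 5 without the deepest wells and 0 and 0 from thinned wells. Lower calls were 40 with a minimum of 500 transcripts and 160 on the shared plates alone. Leaving out 1 library gave 0 to 7 higher and 0 to 108 lower. The causes were not tested. Depth limits single-transcript detection in CD44- wells, and a single well carries 98.9% of the 4 genes' transcripts in CD44+ replicate 1 and 93.9% in CD44- replicate 1.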
